A study of Rattus norvegicus with 9 samples.

Results

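A set of 8 genes known from the epithelium of the gut or of secretory glands, out of 32883 in the deposited table, was followed in rat liver: Gucy2c, Slc15a1, Tmc5, Gcnt3, Fermt1, Eps8l1, Muc1 and Flrt3. They were chosen by their measured values, being near the lowest counts in normal liver and higher in DEN model liver, so their difference between those groups is given as a description, and no test of it is used as a result. Liver tissue RNA of 9 male Sprague-Dawley rats was sequenced, 1 library per rat and 3 rats in each group. The study's methods do not say which part of the liver was sampled. Normal control rats (N1, N3 and N12) received a normal diet, DEN model rats (M13, M17 and M24) weekly intraperitoneal injections of the liver carcinogen diethylnitrosamine (DEN) at 0.01% over a course of 16 weeks, and PZH administration rats (G27, G28 and G42) the same DEN together with PZH (Pien-Tze-Huang), a traditional Chinese medicine. The age of the rats, the week of collection and the PZH dose of each sequenced rat are not given in the sources used here. Groups were taken from the letter that opens each rat's title (N, M or G), since the M rats carry PZH as their treatment tag just like the G rats. Libraries held 14922973 to 27161496 counted reads, with rat G27 the deepest.

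A carcinogen such as DEN causes repeated hepatocyte death and regrowth in rat liver, and bile duct-like cells multiply in the scarred tissue. The liver and the gut both form from embryonic endoderm, and intestinal gene programmes are known to appear in diseased bile duct epithelium. The genes have different tasks in an epithelial cell. Gucy2c is the receptor for the gut hormones guanylin and uroguanylin and makes the messenger cGMP. Slc15a1 (PEPT1) carries small peptides into enterocytes with protons. Gcnt3 adds branches to the sugar chains of mucins, and Muc1 is a mucin anchored in the apical membrane. Eps8l1 belongs to the Eps8 family of actin regulators, Fermt1 (kindlin-1) activates integrins in epithelia, and Flrt3 is an adhesion protein that also acts with fibroblast growth factor receptors. Tmc5 is a transmembrane channel-like protein of uncertain function.

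The table placed Gucy2c at chromosome 4, 170659998 to 170740274, and Slc15a1 at chromosome 15, 106800081 to 106844426. Tmc5 (188278469 to 188337308) and Eps8l1 (72927151 to 72941869) lay far apart on chromosome 1. Fermt1 (125566643 to 125607735) and Flrt3 (134683065 to 134696654) were both on chromosome 3. Gcnt3 was on chromosome 8, 76449081 to 76452554, and Muc1 on chromosome 2, 188543137 to 188547874. All 8 are protein-coding, and the genome build of these positions is not given in the sources used here.

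Promoter sequences were available from RefSeq (build GRCr8) for 6 of the 8 genes, all but Gucy2c and Tmc5. Each covers 250 bases before the gene start and 50 after it. They were searched on both strands for letters that named factors are known to bind. For AP-1 the letters were TGANTCA. The GC box was searched as GGGCGG and the TATA box as TATAAA. For TEAD factors the letters were GGAATG, and for CDX, the intestinal homeobox factors, they were TTTATG. The promoters of Muc1 and Fermt1 are shown because they were the only ones of the 6 that held any of these letters, which are in capitals. Muc1 lies on the plus strand at chr2:176933500-176933799 and Fermt1 on the minus strand at chr3:140666370-140666669.
Muc1: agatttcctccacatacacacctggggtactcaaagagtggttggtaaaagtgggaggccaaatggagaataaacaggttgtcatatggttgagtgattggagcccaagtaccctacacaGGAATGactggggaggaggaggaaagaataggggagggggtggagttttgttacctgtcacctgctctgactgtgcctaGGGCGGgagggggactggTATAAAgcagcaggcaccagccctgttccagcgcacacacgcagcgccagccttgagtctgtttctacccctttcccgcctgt
Fermt1: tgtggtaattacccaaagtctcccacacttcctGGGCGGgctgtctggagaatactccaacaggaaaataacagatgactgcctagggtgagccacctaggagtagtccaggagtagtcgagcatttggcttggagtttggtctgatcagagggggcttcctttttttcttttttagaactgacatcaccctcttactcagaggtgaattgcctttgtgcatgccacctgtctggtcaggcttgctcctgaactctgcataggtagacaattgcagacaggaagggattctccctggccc

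In Muc1, GGAATG stood at -130 to -125, GGGCGG at -51 to -46 and TATAAA at -33 to -28 from the gene start. In Fermt1, GGGCGG stood at -217 to -212. Neither TGANTCA nor TTTATG occurred in any of the 6 windows, where 7.33% and 12.7% of all 33469 promoters in the table held them. Among all promoters 33.1% held GGGCGG, 14.2% TATAAA and 14.2% GGAATG. No motif searched was thus shared by all 6.

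In DEN model liver all 8 genes were at a higher level than in normal liver, in every rat. Values are CPM, read counts divided by a library size that was scaled with TMM factors. The 4 genes Gucy2c, Slc15a1, Tmc5 and Eps8l1, had 0 reads in each normal control rat, where 3 reads would have been 0.229 to 0.252 CPM. In RNA of liver tissue, more cells of a type and more RNA per cell cannot be told apart.

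Gucy2c was at 11.7 CPM in M13, 38.8 CPM in M17 and 32.2 CPM in M24, and at 1.02, 1.53 and 12.7 CPM in G27, G28 and G42. M13 was the lowest DEN model rat for this gene, and G42 reached above it, so the DEN model and PZH administration groups overlapped. Against the floor of 3 reads per library, the DEN model mean was at least 116-fold higher than normal liver and the PZH administration mean at least 21.3-fold higher.

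Slc15a1 was at 32.3 CPM in M13, 5.45 CPM in M17 and 36.9 CPM in M24, and at 0.768, 0.626 and 1.64 CPM in G27, G28 and G42. M17 stood well below the other DEN model rats and still above every PZH administration rat. The DEN model mean was at least 104-fold above the normal floor, and the PZH administration mean at least 4.24-fold.

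Gcnt3 had 11, 1 and 8 reads in N1, N3 and N12, which is 0.859, 0.0839 and 0.611 CPM. It was at 34.5 CPM in M13, 5.55 CPM in M17 and 41.3 CPM in M24, and at 2.82, 1.81 and 2.07 CPM in G27, G28 and G42. The order of the DEN model rats was the same as for Slc15a1, and the 3 groups did not overlap. The DEN model mean was 52.4 times the normal mean, with a counting interval of 33.2 to 84.0.

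Muc1, the other gene of the mucin pair, was at 0.312, 0.168 and 0.763 CPM in N1, N3 and N12. It was at 49.6 CPM in M13, 18.3 CPM in M17 and 13.9 CPM in M24, and at 2.90, 8.21 and 4.56 CPM in G27, G28 and G42. M13 was the highest DEN model rat and M24 the lowest, unlike the order for Gcnt3. The DEN model mean was 65.8 times the normal mean (counting interval 39.7 to 113).

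Fermt1 had 0, 3 and 1 reads in N1, N3 and N12. It was at 16.5 CPM in M13, 4.61 CPM in M17 and 4.91 CPM in M24, and at 0.427, 1.18 and 0.855 CPM in G27, G28 and G42. M13 alone was high, and M17 and M24 were close to each other. The ratio of the DEN model to the normal mean was 79.4, and the few normal reads left it between 32.1 and 301.

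Eps8l1, the least abundant of the 8 per transcript length in DEN model liver, was at 5.27 CPM in M13, 2.63 CPM in M17 and 2.29 CPM in M24. It was at 0.512, 0.348 and 0.641 CPM in the PZH administration rats G27, G28 and G42. The DEN model mean was at least 14.2-fold above the normal floor.

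Tmc5 was at 15.1 CPM in M13, 2.48 CPM in M17 and 7.91 CPM in M24. In G27, G28 and G42 it had 4, 11 and 3 reads (0.171, 0.766 and 0.214 CPM), close to the floor. Its DEN model mean was at least 35.7-fold above the normal floor.

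Flrt3 was the gene with the clearest level in normal liver, at 2.499, 1.511 and 1.297 CPM in N1, N3 and N12. It was at 39.4 CPM in M13, 18.9 CPM in M17 and 21.5 CPM in M24, and at 3.24, 7.17 and 8.26 CPM in G27, G28 and G42. Its ratio of DEN model to normal means, 15.04 (counting interval 11.8 to 19.4), was the smallest of the ratios that could be formed.

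**Figure D1:**
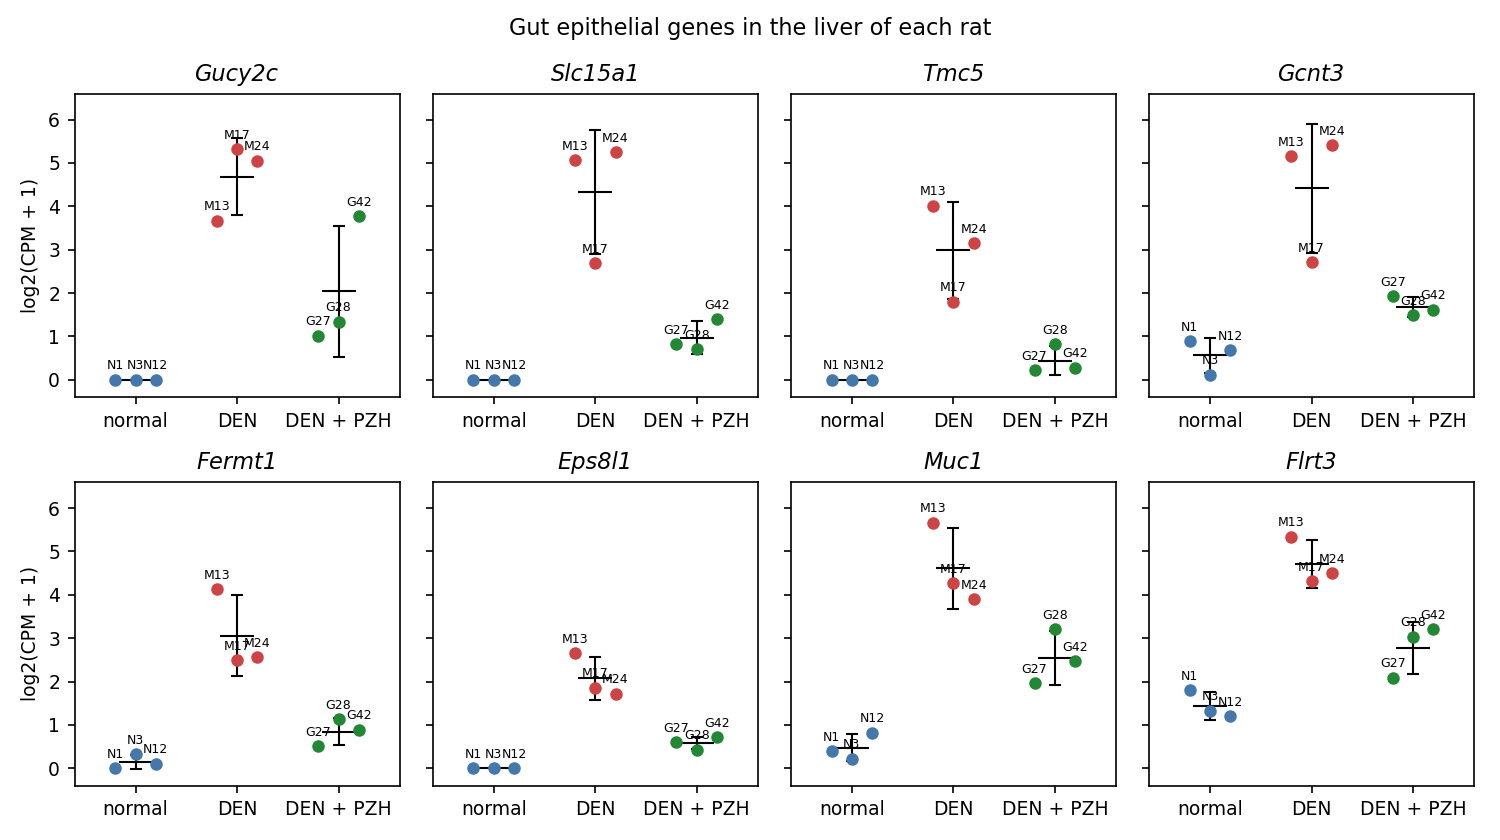
Level of each of the 8 genes in each rat as log2(CPM + 1), with normal control rats in blue, DEN model rats in red and PZH administration rats in green. Bars are the mean and SD of 3 rats on this scale. Every DEN model rat lies above every normal control rat in each panel, and only for Gucy2c does a PZH administration rat (G42) reach above a DEN model rat (M13).

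Every DEN model rat lay above every normal control rat for 8 of the 8 genes, as for 31.3% of the 14479 genes tested across the 9 rats, and all 8 were beyond the call threshold as higher, as were 25.3% of the genes fitted in that comparison. Both counts follow from how the genes were chosen and support nothing. The fitted median of the 8 on the log2 scale was 7.59, which depends on how the fit treats the 4 genes at 0 in normal liver, and with these at their bound against the floor it was 5.85. Over all genes it was 0.03.

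Per transcript length, on the FPKM scale of the deposited table, Gcnt3 and Muc1 led in DEN model liver, at 20.9 ± 15.6 and 17.1 ± 12.96 FPKM (SD, n = 3). Slc15a1 (12.4 ± 9.02 FPKM), Flrt3 (10.48 ± 4.98 FPKM) and Gucy2c (10.2 ± 4.85 FPKM) followed. Tmc5 (3.11 ± 2.40 FPKM), Fermt1 (2.52 ± 2.07 FPKM) and Eps8l1 (1.27 ± 0.671 FPKM) were lowest. Neighbours in this order differed by less than the larger of their SDs, apart from Gucy2c and Tmc5. For scale, Krt19, a keratin of bile duct cells, was at 273 ± 198 FPKM in the same rats.

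The 8 genes did not vary together in a single way among the DEN model rats. M17 was the lowest rat for 5 of them (Slc15a1, Tmc5, Gcnt3, Fermt1 and Flrt3), M24 for Eps8l1 and Muc1, and M13 for Gucy2c. M13 was the highest for 5 (Tmc5, Fermt1, Eps8l1, Muc1 and Flrt3), M24 for Slc15a1 and Gcnt3, and M17 for Gucy2c. The highest rat exceeded the lowest 7.45 times for Gcnt3, 6.78 times for Slc15a1 and 6.11 times for Tmc5, and by 2.09 times for Flrt3. Scaled to their own range over the 9 rats, the gene farthest from the mean profile of the 8 was Gucy2c (mean absolute difference 0.138) and the nearest was Eps8l1 (0.0614).

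After PZH, 7 of the 8 genes were lower than in DEN model liver (edgeR's quasi-likelihood test, called below an adjusted p of 0.05), all but Gucy2c, against 10.3% of all genes tested. The DEN model rats helped to choose the genes, which favours a fall in this comparison. Across the 8 the median was -3.07 on the log2 scale, against 0.01 over all genes tested. The peptide transporter Slc15a1 fell most, with a PZH administration mean of 4.06% of the DEN model mean and a log2 fold change of -4.62 (approximate SE 0.749, adjusted p = 0.0115). Tmc5 had a log2 fold change of -4.50 (SE 0.811, adjusted p = 0.0138) and a mean of 4.51% of the DEN model mean. The mucin-branching enzyme Gcnt3 fell by 3.56 on the log2 scale (SE 0.678, adjusted p = 0.0153), to 8.23% of the DEN model mean. Muc1, which can carry such chains, fell by 2.37 (SE 0.554, adjusted p = 0.0247), to 19.1%.

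Among the genes of adhesion and the actin skeleton, Fermt1 fell by 3.41 on the log2 scale (SE 0.637, adjusted p = 0.0145) and Eps8l1 by 2.72 (SE 0.488, adjusted p = 0.0137). Flrt3 had the smallest change of the genes that passed, -2.09 (SE 0.406, adjusted p = 0.0161), with a PZH administration mean of 23.4% of the DEN model mean. Gucy2c did not pass, at -2.46 (95% interval -4.20 to -0.72, adjusted p = 0.0877). Without G42, the PZH administration rat with the high value, its log2 fold change was -4.41 (adjusted p = 0.0292). Every PZH administration rat lay below every DEN model rat for 7 of the 8 genes, against 22.2% of all genes. The study's methods use a log2 change beyond 2 in size and an unadjusted P below 0.001 as thresholds. With these, 6 of the 8 passed as lower, against 1.35% of all genes. The genes were chosen in part by their high values in the DEN model rats, which favours both counts over the share of all genes. Slc15a1, Tmc5, Fermt1 and Eps8l1 had enough reads to be tested here only through the DEN model rats.

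Most of these calls were lost when rat M13 was left out, for a reason that was not tested. Without M13 Slc15a1 was the gene that passed (1 of 8). The other 7 had adjusted p of 0.0515 to 0.114 in edgeR's test, with log2 fold changes between -3.78 and -1.62. Slc15a1 itself had an adjusted p of 0.0464 in edgeR's test. The number of genes of the whole table called lower went from 1477 to 152 in the same fit. Without M17 or without M24, 7 of the 8 passed. Without any 1 PZH administration rat 6 passed, as Muc1 was not called without G27 (adjusted p = 0.0665 in edgeR) or G42 (0.0762) and Gcnt3 not without G28 or G42 (0.0524 in both).

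**Figure D2:**
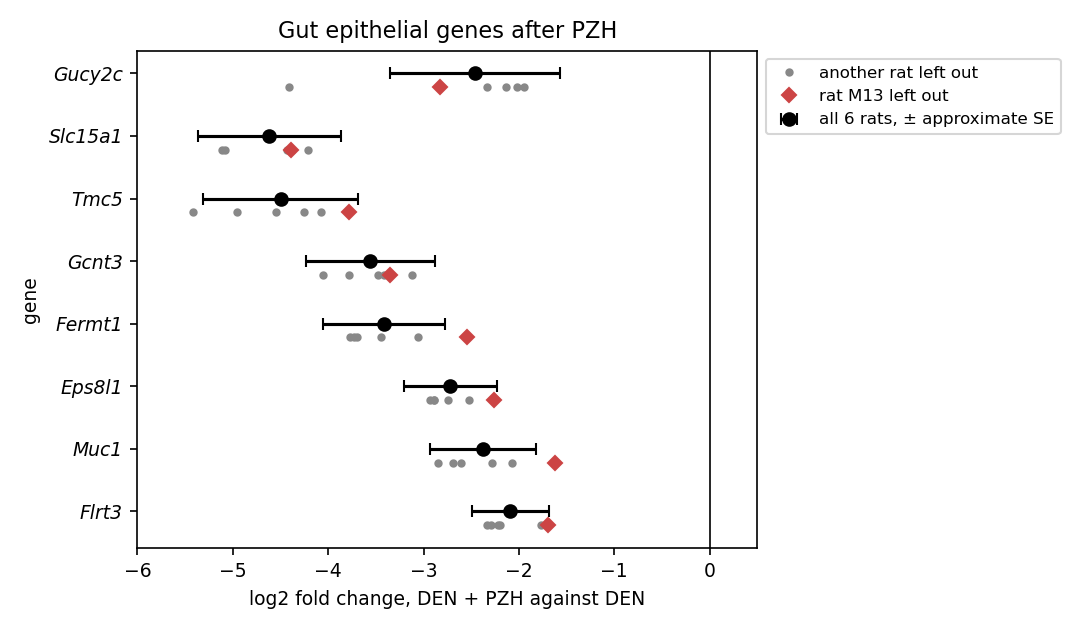
Log2 fold change for each gene, PZH administration relative to DEN model rats. Black points and bars are the fit on 6 rats with its approximate SE, grey points are fits without another rat, and red diamonds are fits without rat M13. All values are below 0, and the diamonds lie nearest to 0 for Tmc5, Fermt1, Eps8l1, Muc1 and Flrt3.

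The genes were also compared between PZH administration and normal control rats, to place PZH-treated liver against liver without DEN. Every PZH administration rat lay above every normal control rat for 8 of the 8 genes, against 14.7% of all genes, and the choice of genes with low normal values favours this order. Only 4 of the 8, Gucy2c, Gcnt3, Muc1 and Flrt3, had enough reads in these 6 rats to be tested. Muc1 (log2 fold change 3.62, SE 0.615, adjusted p = 0.0138) and Gucy2c (9.24 as fitted against 0 reads, adjusted p = 0.0497) passed as higher in edgeR's test, against 4.07% of all genes tested. Gucy2c was close to the threshold, and without N1, N3, N12 or G28 its adjusted p was 0.0742 to 0.123. For Muc1 the values without N1 and without G28 were 0.0678 and 0.0638. Flrt3 had a log2 fold change of 1.81 (adjusted p = 0.0522) and Gcnt3 of 2.101 (adjusted p = 0.0936). In means, PZH-treated liver held 6.22 ± 2.64 CPM of Flrt3 and 5.22 ± 2.72 CPM of Muc1, against 1.77 ± 0.641 and 0.415 ± 0.311 CPM in normal liver (SD, n = 3).

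Relatives of the 8 genes in their own families moved in part. Of 29 relatives listed, 20 had enough reads to be tested, and 10 were higher and 2 lower in DEN model liver by edgeR's test, against 25.3% and 20.5% of all genes tested. Their median log2 fold change was 0.64. After PZH 5 of the 20 were lower and 0 higher (against 10.3% of genes lower), with a median of -0.50. Without M13 these were 2, and without M24, G28 or G42 they were 3.

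The 5 that fell after PZH were Tmc4, Slc15a2, Gcnt1, Eps8l3 and Flrt2. Tmc4, a relative of Tmc5, had 1, 2 and 0 reads in N1, N3 and N12, was at 17.6, 6.44 and 11.1 CPM in M13, M17 and M24, and at 0.853, 2.44 and 1.496 CPM in G27, G28 and G42. It fell by 2.88 on the log2 scale after PZH (adjusted p = 0.0126) and stayed higher than in normal liver (log2 fold change 4.17, adjusted p = 0.0253 in edgeR's test). Eps8l3, which is known from the brush border, had 0 reads in normal liver, was at 7.44, 1.68 and 12.0 CPM in M13, M17 and M24, and had 3, 0 and 3 reads in G27, G28 and G42. Slc15a2 (PEPT2), the kidney relative of Slc15a1, was at 3.95, 5.20 and 3.33 CPM in M13, M17 and M24 and at 0.341, 0.557 and 0.855 CPM after PZH, with 0.312 to 0.839 CPM in normal liver.

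Gcnt1, the broadly expressed relative of Gcnt3, had a log2 fold change of 2.49 in DEN model liver (adjusted p = 0.00164) (edgeR), and one of -1.65 after PZH (adjusted p = 0.0293), while Gcnt2 and Gcnt4 had 0.17 and 0.16 in DEN model liver (adjusted p = 0.789 and 0.732). Fermt2, the kindlin of most tissues, had a log2 fold change of -0.32 in DEN model liver (adjusted p = 0.165), and Fermt3, the kindlin of blood cells, of 0.96 (adjusted p = 0.0191). Eps8l2 was at 0.02 (adjusted p = 0.937) and Eps8 rose by 1.24 on the log2 scale (adjusted p = 0.00406). Flrt2 rose by 3.74 (adjusted p = 0.000404), and Slc15a5, with 0 reads in normal liver, had 17, 62 and 24 reads in M13, M17 and M24. Tmc3 fell by 3.13 (adjusted p = 0.014), and Npr2, a natriuretic peptide receptor with a cyclase domain, rose by 2.23 (adjusted p = 0.00359 in edgeR's test). The receptor cyclase Gucy2e had 0 reads in all 9 rats, and Gucy2d and Gucy2f had at most 3 in any rat.

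The ligands of Gucy2c were uneven among the DEN model rats. Guca2a (guanylin) had 9, 5 and 111 reads in M13, M17 and M24, and Guca2b (uroguanylin) 33, 4 and 102. Both were therefore highest in M24, with at most 4 reads of either in any normal control or PZH administration rat. Per transcript length, Guca2a was at 0.626, 0.331 and 8.01 FPKM in M13, M17 and M24. Guca2b was at 3.96, 0.457 and 12.7 FPKM in these rats, and Gucy2c at 4.62, 12.5 and 13.45 FPKM. M17, the rat with the most Gucy2c, had the fewest reads of both ligands among the DEN model rats. The cGMP-dependent kinase Prkg2 had 0, 0 and 34 reads in M13, M17 and M24, and the sodium-proton exchanger Slc9a3 0 reads in every rat.

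Of 13 genes listed for the guanylin and cGMP pathway, 7 were tested, and 4 were higher and 2 lower in DEN model liver, against 25.3% and 20.5% of all genes. Cftr, the chloride channel that this pathway opens in the gut and that bile duct cells also carry, rose by 7.00 on the log2 scale (adjusted p = 9.07e-06) and fell by 1.39 after PZH (edgeR, adjusted p = 0.0339). The phosphodiesterases that degrade cGMP also moved. Pde5a had log2 fold changes of 2.85 (adjusted p = 0.000425) and, after PZH, -1.25 (adjusted p = 0.0203), and Pde9a of 3.84 (adjusted p = 0.00742) and -3.45 (adjusted p = 0.034). Abcc4, an exporter of cyclic nucleotides, rose by 2.67 (adjusted p = 0.000637), while the scaffold genes Pdzk1 (-1.56, adjusted p = 0.00222) and Slc9a3r1 (-1.45, adjusted p = 0.00062 in edgeR's test) fell. After PZH 3 of the 7 were lower and 0 higher, against 10.3% of all genes lower. The count of lower genes was 0 without M13 or without M24, 1 without G42 and 5 without M17.

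The label gut epithelial was checked against the genes that define intestinal cells. Sucrase-isomaltase (Si), intestinal alkaline phosphatase (Alpi) and trehalase (Treh), enzymes of the mature enterocyte surface, had 0 reads in all 9 rats. Lactase (Lct) had 4 reads in M17, 5 in G27 and 0 in the other rats. Fabp2, the intestinal fatty acid-binding protein, was at 1.25 to 2.94 CPM in normal, 1.74 to 4.90 CPM in DEN model and 1.11 to 2.21 CPM in PZH-treated liver (DEN model against normal, log2 fold change 0.68, adjusted p = 0.286 in edgeR's test). Muc2 was not analysed here. The 8 genes are thus named for where they are best known, and their rise was not accompanied by the mature enterocyte enzymes.

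Rat M24 stood apart. Cdx2, the homeobox factor that specifies intestine, had 422 reads in M24 (17.6 CPM), 16 in M13, 2 in M17, 2 in N1, 2 in N12 and 0 in N3 and in every PZH administration rat. The following genes were picked after their values had been seen. Cdx1 had 52 reads in M24 and 0 in all other rats, and the membrane mucin Muc13 had 1871 reads in M24 (77.9 CPM), 1 in M13 and 0 elsewhere. Agr2, needed for mucin folding, had 532 reads in M24, 2 in M13 and 0 elsewhere. The trefoil peptide Tff1 had 722 reads in M24 and 113 in M13, and the stomach protein Gkn2 had 256 and 30, with at most 2 reads of either in any other rat. None of these genes, Cdx2 included, passed the filter on low counts in the fits with no rat left out.

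**Figure D3:**
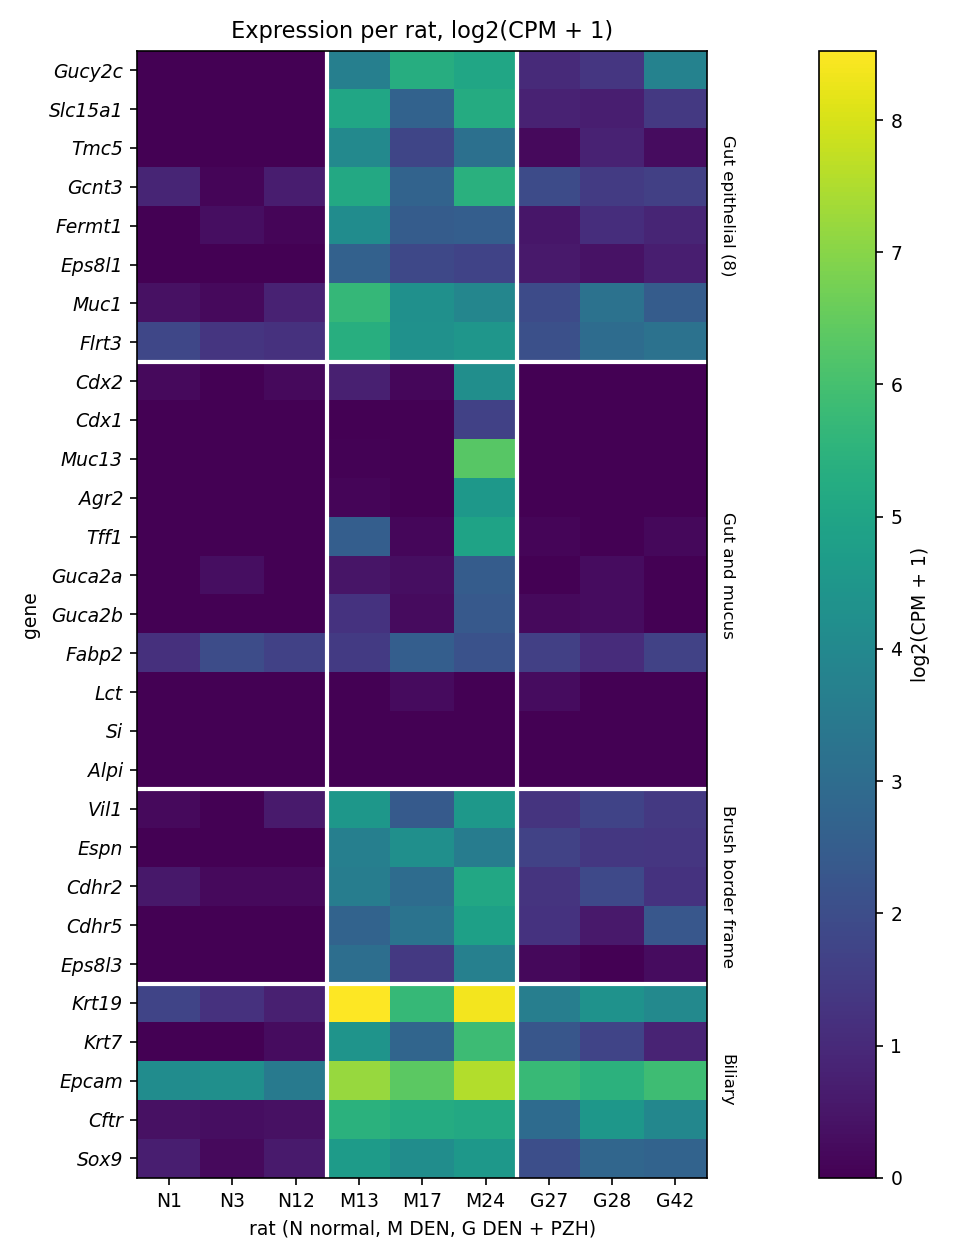
Level of the 8 genes and of gut, brush border and biliary genes in each rat as log2(CPM + 1), genes in rows and rats in columns, white lines between groups. The 8 genes are raised in M13, M17 and M24, while Cdx2, Cdx1, Muc13 and Agr2 are bright in M24 alone and Si and Alpi are at 0 in all 9 rats.

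Of the 8 genes, M24 was the highest rat for 2, Slc15a1 and Gcnt3. M13, with 16 reads of Cdx2, was the highest for 5, and M17, with 2 reads of Cdx2, for Gucy2c.

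Of 24 enterocyte and brush border genes listed, 16 were tested, and 7 were higher and 4 lower in DEN model liver, against 25.3% and 20.5% of all genes. The 7 included genes that build the core and the tip links of microvilli. Vil1 (villin) was at 22.01, 4.31 and 22.5 CPM in M13, M17 and M24 and at 1.45, 2.30 and 1.64 CPM in G27, G28 and G42, a fall by 3.17 on the log2 scale (edgeR, adjusted p = 0.0153). Espn (espin) had 0 reads in normal liver, a DEN model mean of 13.5 ± 3.78 CPM and a PZH administration mean of 1.78 ± 0.343 CPM (SD, n = 3; log2 fold change -2.88, adjusted p = 0.00513). The microvillus cadherins Cdhr2 and Cdhr5 had log2 fold changes of -3.24 (adjusted p = 0.0158) and -2.85 (adjusted p = 0.0416) after PZH. Ush1c, their scaffold, had 168, 16 and 70 reads in M13, M17 and M24 and 0, 0 and 9 in G27, G28 and G42 (adjusted p = 0.0515). The glucose transporter Slc5a1 rose by 3.89 (adjusted p = 0.00063 in edgeR's test) in DEN model liver.

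Apoa4 of the same list went the other way, at -4.35 in DEN model liver (edgeR, adjusted p = 0.000871) and 3.17 after PZH (adjusted p = 0.0215). Hepatocytes also make its product. Enpep (-2.25, adjusted p = 0.00045), Anpep (-0.745, adjusted p = 0.0217) and Dpp4 (-0.703, adjusted p = 0.0268) were lower in DEN model liver as well by edgeR's test. In all, 4 of the 16 were lower and 1 higher after PZH, against 10.3% and 8.72% of all genes, and without M13 2 were lower and 0 higher. Across the 16 the median was 0.60 on the log2 scale in DEN model liver and -0.20 after PZH. Without the filter on low counts 21 genes of the list could be fitted, with fitted medians of 3.05 and -0.86 that include further genes at 0 in normal liver.

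Of 22 mucus genes listed, 17 were in the table and 6 passed the filter and were tested. In DEN model liver 4 were higher, Tff3, Fcgbp, Spdef and Gpa33, and 1 lower, Pigr, the immunoglobulin transporter that hepatocytes of the rat express, against 25.3% and 20.5% of all genes. Tff3, a trefoil peptide of goblet cells and bile ducts, was at 37.4, 2.23 and 16.8 CPM in M13, M17 and M24 and at 1.24, 0.696 and 1.78 CPM in G27, G28 and G42. It fell by 3.90 on the log2 scale (adjusted p = 0.0245), as did Fcgbp by 3.33 (adjusted p = 0.0358 in edgeR's test). These 2 were the genes of the list that passed as lower after PZH, against 10.3% of all genes, and the count was 0 without M13, M24 or any 1 PZH administration rat.

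Among 13 intestinal transcription factors and crypt genes, 7 were tested. Klf5, a factor of proliferating crypt cells, had 2, 0 and 4 reads in N1, N3 and N12 and was at 46.1, 8.12 and 73.1 CPM in M13, M17 and M24 and at 1.07, 1.74 and 2.07 CPM in G27, G28 and G42. It fell by 4.71 after PZH (adjusted p = 0.0116). Elf3, an epithelial ETS factor, rose by 2.94 (adjusted p = 0.00417) and fell by 3.07 after PZH (edgeR, adjusted p = 0.0137). The order of the DEN model rats for both, M24, M13 and then M17, was the order for Slc15a1 and Gcnt3. Gata6 rose by 0.71 (adjusted p = 0.0351) and Hnf4g fell by 0.72 (adjusted p = 0.0188 in edgeR's test). In all, 3 of the 7 were higher and 2 lower in DEN model liver, against 25.3% and 20.5% of all genes, and 2 were lower after PZH, against 10.3%. Without M13 the last count was 1.

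Markers of bile duct epithelium moved with the 8 genes. Their list, like the others here, was chosen with earlier results of these data known. Of 14 biliary genes, 14 were higher in DEN model liver and 12 lower after PZH, against 25.3% and 10.3% of all genes, with medians of 5.74 (5.40 with the gene at 0 in normal liver at its bound) and -2.54. Without M13, M24 or G42 the number lower after PZH was 5, 7 and 6, and the number higher in DEN model liver was 14 without either DEN model rat. Krt19 was at 2.34, 1.34 and 0.687 CPM in N1, N3 and N12, at 367, 51.0 and 334 CPM in M13, M17 and M24, and at 11.4, 19.3 and 15.2 CPM in G27, G28 and G42. It fell by 4.01 on the log2 scale after PZH (edgeR, adjusted p = 0.0125), and Epcam by 1.39 (adjusted p = 0.0203). Krt7, Sox9, Spp1, Sctr, Prom1, Cldn4, Cldn7, Tspan8 and Cd24 fell as well, by 1.69 to 3.49. The water channel Aqp1 had a log2 fold change of 0.35 after PZH (adjusted p = 0.531). Summed over the list, biliary genes were at 49.6 to 71.2 CPM in normal, 1041, 440.5 and 1189 CPM in M13, M17 and M24, and 216 to 240.4 CPM in PZH-treated liver. The 8 genes summed to 2.01 to 3.67 CPM, to 204.5, 96.7 and 161 CPM, and to 11.9 to 30.9 CPM in the same order. The part of a change in bile duct cells in the values of the 8 genes was not tested.

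Hepatocyte markers moved the other way. Of 10, 5 were lower in DEN model liver (against 20.5% of all genes) and 3 higher after PZH, Ttr, Asgr1 and Hnf4a (against 8.72%), and no marker was at 0. The number lower in DEN model liver was 3 without M13, M24 or any 1 normal control rat and 9 without M17. The number higher after PZH was 0, 8 and 1 without M13, M17 and M24. Their sum was 164900 to 182605 CPM in normal, 49712, 82902 and 35164 CPM in M13, M17 and M24, and 133342 to 182285 CPM in PZH-treated liver. Alb and Tf gave the largest parts of this sum, with means of 94940 and 36459 CPM in normal liver. In edgeR's test of DEN model against normal liver, Alb was called lower (adjusted p = 0.0367) and Tf was not (0.196). Each of the 10 markers was highest in M17 among the DEN model rats. M17, the DEN model rat with the lowest values of 5 of the 8 genes, thus had the highest level of hepatocyte markers of the DEN model rats. Of 9 leukocyte genes tested, 5 were higher in DEN model liver (against 25.3% of all genes), and of 8 tested after PZH 5 were lower (Ptprc, Lyz2, Cd68, Csf1r and Laptm5; against 10.3%). Without M13 or G42 the count of lower genes was 0, without M24 or G28 it was 1 and without G27 it was 3. Leukocyte markers summed to 204 to 323 CPM, to 779, 536 and 1014 CPM, and to 212 to 336 CPM in the 3 groups, and no marker was at 0 in all rats. Their part in the values of the 8 genes was not tested.

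Of 14 pancreatic and gastric gland genes, trypsin (Prss1), pancreatic lipase (Pnlip), the gastric pump subunit Atp4b and intrinsic factor (Gif) had 0 reads in all 9 rats, and 2 were tested. Cpa1, a carboxypeptidase of pancreatic acinar cells, had 0 reads in normal liver, was at 42.2, 15.01 and 3.41 CPM in M13, M17 and M24 and had 1, 14 and 2 reads in G27, G28 and G42 (log2 fold change -5.80 after PZH, edgeR, adjusted p = 0.0166). Cpa1 had enough reads to be tested here only through the DEN model rats. Its order among the DEN model rats, with M13 highest, was that of Muc1 and Eps8l1.

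**Figure D4:**
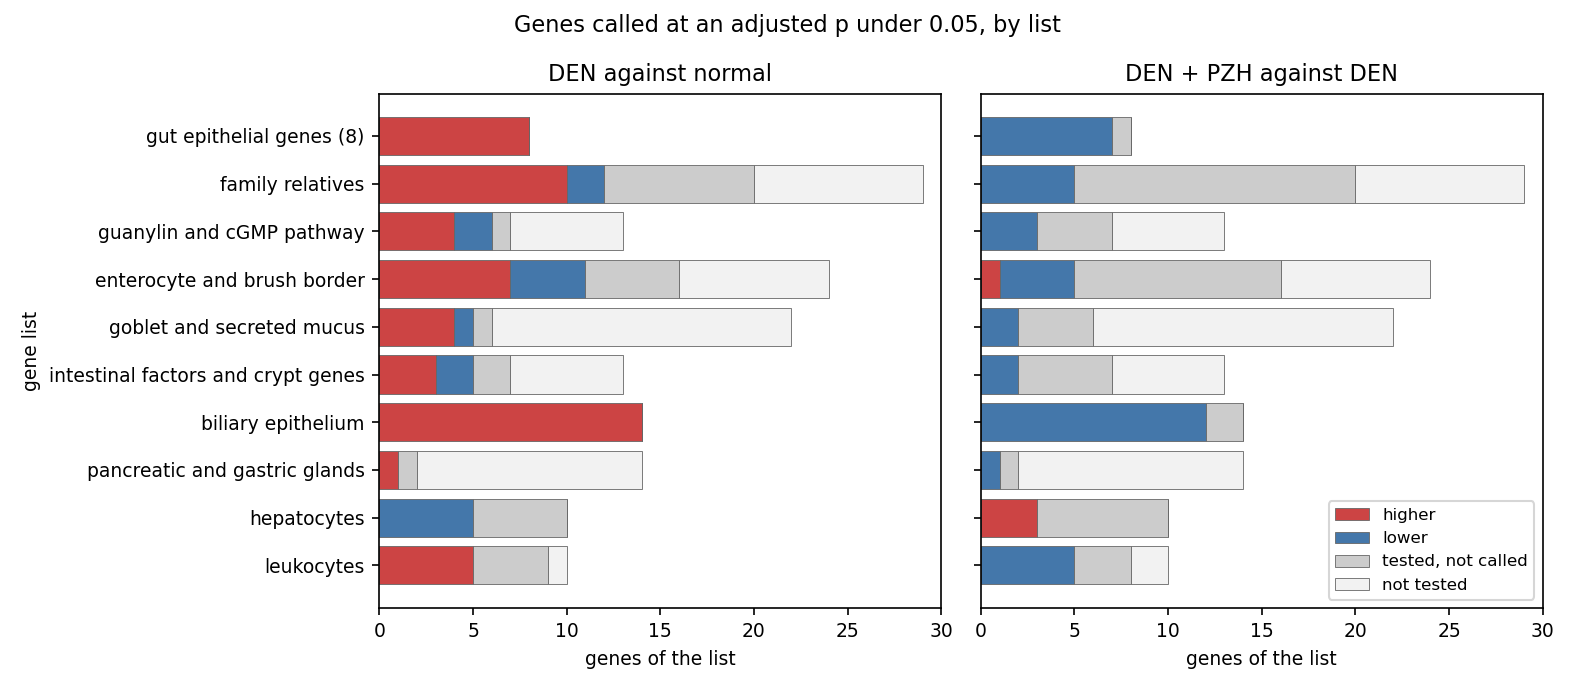
Number of genes of each list called higher (red), called lower (blue), tested and not called (grey) or not tested (white) at an adjusted p under 0.05, in DEN model against normal control liver (left) and in PZH administration against DEN model liver (right). The 8 gut epithelial genes, chosen by the left comparison, and the 14 biliary genes are all red on the left and mostly blue on the right, while the gut lists are mixed.

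The genes whose pattern over the 9 rats was most like the mean of the 8 were Fjx1, Tmc4, Pcyox1l, Rtn1 and Gabrp, among 2552 genes ranked. Their mean absolute differences from the mean profile, each gene scaled from 0 at its lowest to 1 at its highest rat in log2(CPM + 1), were 0.0399, 0.0418, 0.043, 0.0442 and 0.0448. Fjx1 was at 0.0789 ± 0.0765 CPM in normal, 5.94 ± 2.32 CPM in DEN model and 1.03 ± 0.115 CPM in PZH-treated liver (SD, n = 3). Gabrp, a subunit of the GABA receptor found in epithelia, was at 29.6, 13.8 and 12.6 CPM in M13, M17 and M24, the order seen for Muc1. Tmc4 is the relative of Tmc5 described above.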

How the data were processed

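Liver mRNA of 9 rats was sequenced on an Illumina NovaSeq instrument, 1 library per rat. The authors deposited whole-number read counts per gene and rat, not normalized, and FPKM values that they scaled for transcript length and library size. The submitters' processing notes name fastp, HISAT2 2.1.0, StringTie 1.3.3b and edgeR 3.30.3. Columns of the authors' own comparisons (group means, fold changes, P and Q values) were not used.

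Counts were tested in R 4.3.3 with edgeR 4.0.16 (filterByExpr, TMM factors, then glmQLFit with glmQLFTest), with group as the single term and 6 rats per comparison, and p-values were adjusted by Benjamini-Hochberg over all genes tested. A gene was called at an adjusted p under 0.05. An approximate SE was the log2 fold change divided by the square root of its F statistic, and 95% intervals are 1.96 SE wide on each side. CPM used TMM factors over all 9 rats. Intervals of ratios and the floor of 3 reads cover counting error in normal liver only. The fits were checked on simulated data.

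The genes and the lists beside them were chosen with earlier results of these data known. Named from a list were genes called after PZH, up to 3 further genes with the largest change in DEN model liver, 11 fixed gut and biliary genes, and any tested relative. Enpep, Anpep and Dpp4 were added so that every enterocyte list gene called lower in DEN model liver is named. The 5 genes of most similar pattern had to differ by at least 2 over the 9 rats in log2(CPM + 1). List genes were matched by symbol, or by Ensembl identifier through RefSeq. Slc15a2, Eps8l3, Pde9a, Cdhr5, Ush1c, Fcgbp and Cpa1 had enough reads to be tested after PZH only through the DEN model rats, which favours a fall. Some list genes, among them Muc2, were not analysed here. The values of some other list genes are not reported here. Untested genes named beside these, such as Prkg2, Treh and Cdx1, were picked after their values were seen.

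Alternatives were DESeq2 1.42.0, library totals without TMM, no filter, 1 fit of all 9 rats, the study's thresholds, and leaving out each rat. Applying them to the lists, and setting genes at 0 in normal liver to their bound in a median, was decided after seeing the data.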

Additional observations from a re-analysis of the deposited data

How the results depend on the processing

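The number of the 8 genes higher in DEN model than in normal liver was 8 under every alternative. For genes lower after PZH (7), it was 7 with DESeq2, without the filter and in 1 fit of all 9 rats, 8 with library totals, 6 at the study's thresholds and 1 to 7 when 1 rat was left out, the 1 being without M13. For genes higher in PZH-treated than in normal liver (2), it was 4 with DESeq2, 4 without the filter, 4 in 1 fit of all 9 rats, 3 with library totals, 1 at the study's thresholds and 0 to 3 when 1 rat was left out. It was 0 without N1 or without G28, and 1 without N12 or without N3. The cause was not tested. No log2 fold change of the 8 genes changed sign under any alternative. Library totals in place of TMM shifted the median of all genes by 0.86 in DEN model against normal liver, by -0.67 after PZH and by 0.23 in PZH-treated against normal liver, so each change is relative to the TMM scaling. With totals, 8126 genes were higher and 958 lower in DEN model liver (TMM 3612 and 2917), 556 and 5696 after PZH (TMM 1245 and 1477), and 818 and 91 in PZH-treated against normal liver (TMM 543 and 153). Gucy2c passed after PZH with totals (log2 fold change -3.05, adjusted p = 0.0208 in edgeR). Over the alternatives, the genes called lower after PZH numbered 5 to 13 of the biliary list, 2 to 8 of the enterocyte list, 2 to 13 of the relatives, 0 to 5 of the guanylin pathway, 0 to 4 of the mucus list, 1 to 3 of the intestinal factors and 0 to 7 of the leukocyte list, and 152 to 5696 of all genes tested. Hepatocyte genes lower in DEN model liver numbered 2 to 9 and those higher after PZH 0 to 8, with 9 and 7 under DESeq2. With 3 rats a group and few reads in normal liver, differences among low genes may have been missed, which was not tested. No paired analysis was possible because the groups share no replicate number.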
